A study of Mus musculus with 16 samples.

Results

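The genes of the p53 pathway were followed in 16 cultured explants of mouse epicardium, 8 grown with blebbistatin and 8 grown without it. The group consisted of 32 genes chosen by name, Trp53 itself, its regulators and its classical targets, and all 32 were found among the 15805 genes of the deposited count table. They were sorted by role into 5 core regulators, 6 genes of cell cycle arrest, 12 of apoptosis, 5 of DNA repair or nucleotide supply and 4 of other stress responses. Epicardial cells cover the surface of the heart, and in explant culture they migrate out of a tissue fragment onto the substrate. Blebbistatin is a small molecule that stops myosin II from pulling on actin. Per the labels, all explants were primary cultures of epicardial cells from C57BL6 mice on a collagen gel, and the dose was 20, with the unit written as mM in one place and mm in another. The sources used here do not give the age of the mice, the length of treatment or whether controls received solvent. Nothing in the labels says that the 8 explants of a group came from separate animals, so p-values measure the spread between these libraries, which may be partly technical.

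The p53 protein is a transcription factor that cells keep at a low level, because the ubiquitin ligase MDM2 marks it for degradation. Damage to DNA and other stresses release it from MDM2, and it then switches on genes that stop the cell cycle, such as Cdkn1a, that lead to apoptosis, such as Bax and Bbc3, or that repair DNA, such as Ddb2 and Xpc. Mdm2, Ccng1 and Ppm1d are themselves p53 targets and close negative feedback loops. Much of the control of p53 lies in the stability and modification of the protein, which RNA levels do not show.

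Binding of p53 is to pairs of a 10-base unit, the p53 decamer. The 250 bases before the annotated start of 5 members are shown, from RefSeq on build GRCm38.p6, 5′ to 3′ on the strand of the gene, with matches to the decamer consensus in capitals. Cdkn1a, Ccng1 and Mdm2 are shown because their RNAs were lowest in the same 2 libraries, blebbistatin 3 and 6, and Plk2 and Trp53i11 because they had the smallest p among the arrest and apoptosis genes.
Cdkn1a (chr17:29090729-29090978, + strand): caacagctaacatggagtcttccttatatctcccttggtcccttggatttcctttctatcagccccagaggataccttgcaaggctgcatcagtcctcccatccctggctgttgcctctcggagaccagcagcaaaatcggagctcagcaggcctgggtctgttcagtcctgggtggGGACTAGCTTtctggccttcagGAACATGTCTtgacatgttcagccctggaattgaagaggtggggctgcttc
Ccng1 (chr11:40755287-40755536, - strand): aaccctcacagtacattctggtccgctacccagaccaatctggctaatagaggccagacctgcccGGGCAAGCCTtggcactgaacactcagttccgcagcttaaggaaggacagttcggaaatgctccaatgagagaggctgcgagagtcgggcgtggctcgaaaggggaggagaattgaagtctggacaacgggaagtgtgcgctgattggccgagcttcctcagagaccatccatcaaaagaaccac
Mdm2 (chr10:117710759-117711008, - strand): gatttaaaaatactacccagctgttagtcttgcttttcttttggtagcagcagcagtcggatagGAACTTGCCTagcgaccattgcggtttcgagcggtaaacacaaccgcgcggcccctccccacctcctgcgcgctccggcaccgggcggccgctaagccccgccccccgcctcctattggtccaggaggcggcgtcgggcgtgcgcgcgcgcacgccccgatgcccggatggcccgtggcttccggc
Plk2 (chr13:110394794-110395043, + strand): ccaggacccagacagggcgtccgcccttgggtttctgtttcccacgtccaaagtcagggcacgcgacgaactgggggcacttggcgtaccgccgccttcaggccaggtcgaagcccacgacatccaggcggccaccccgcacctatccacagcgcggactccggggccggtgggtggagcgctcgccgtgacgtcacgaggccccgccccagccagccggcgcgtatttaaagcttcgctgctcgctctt
Trp53i11 (chr2:93187298-93187547, + strand): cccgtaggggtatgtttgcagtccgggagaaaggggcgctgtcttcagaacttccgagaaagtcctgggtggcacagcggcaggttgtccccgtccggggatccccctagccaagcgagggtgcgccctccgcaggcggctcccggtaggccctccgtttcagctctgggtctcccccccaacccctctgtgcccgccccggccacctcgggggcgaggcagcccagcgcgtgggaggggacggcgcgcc
With positions counted back from the start, the matches of Cdkn1a began at −73 and −51, that of Ccng1 at −185 and that of Mdm2 at −186. A second annotated start of Cdkn1a has a window with 0 matches. The windows of Plk2 and Trp53i11 held none, which says only that the consensus is not spelled out in these 250 bases. RefSeq windows were at hand for 24 of the 32 members, and 11 of the 24 (45.8%) had a match in at least 1 window, against 7.29% of the 10665 genes of the table with a window. The other members with a match were Trp53, Ppm1d, Bax, Ei24, Aen, Polk, Sesn1 and Rps27l. The members had been chosen as p53 genes, so this share is a description of the list. The CArG box, the motif of serum response factor, was in 0 of the 24 members and in 1.43% of the 10665 genes.

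The libraries held 20176386 to 89620195 counts with blebbistatin and 27065611 to 60321622 counts in controls. Of the epicardial and mesothelial markers 8 of 8 were counted, with a summed level of 611 to 1842 CPM with blebbistatin and 1035 to 2194 CPM in controls (CPM, counts scaled to a common library size). Being counted does not by itself identify the cell type, as 7 of 7 macrophage and 5 of 5 fibroblast markers were counted too. Markers of macrophages stood at 223 to 3090 CPM with blebbistatin and 287 to 4205 CPM in controls over 7 of 7 markers. The 3 libraries highest in the mean of these markers were blebbistatin 3, blebbistatin 6 and control 6. Of 6 endothelial markers 3 were counted, at 15.1 to 51.4 CPM with blebbistatin and 30.0 to 62.1 CPM in controls. Of 7 cardiomyocyte markers 5 were counted, at 651 to 1209 CPM with blebbistatin and 411 to 1020 CPM in controls. Among these 5, Tnnt2 had the highest median, 897 CPM with blebbistatin and 449.8 CPM in controls. The medians of Ttn (46.98 CPM with blebbistatin and 10.67 CPM in controls) and Actn2 were also higher with blebbistatin. Those of Myl7 (74.43 CPM with blebbistatin and 94.0 CPM in controls) and Myh6 were lower with blebbistatin. Fibroblast markers stood at 2667 to 7034 CPM with blebbistatin and 5564 to 7848 CPM in controls, and 1 of 4 erythroid markers was counted, at 0.431 to 6.60 CPM with blebbistatin and 0.776 to 5.80 CPM in controls. Mitochondrial genes took 16.8 to 25.5% of the counts with blebbistatin and 13.8 to 18.9% in controls. Y-linked genes summed to 6.04 to 180 CPM with blebbistatin, median 143.5, and 3.81 to 177 CPM in controls, median 7.08. Their part in the results was not tested beyond the analyses with covariates or left-out libraries.

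All 32 genes were counted in both groups, and the highest levels were those of genes of arrest and feedback. Per kilobase of exon, which allows genes of different length to be compared, Ccng1, the cyclin G1 gene, was highest, at 182 CPM per kilobase with blebbistatin and 238.5 in controls. Cdkn1a, which encodes p21, an inhibitor of cyclin-dependent kinases, followed at 90.7 with blebbistatin and 109.8 in controls, and then Mdm2 at 54.7 with blebbistatin and 66.0 in controls. Rps27l, a ribosomal protein paralog, had 43.5 CPM per kilobase with blebbistatin and 54.1 in controls, and Trp53 had 40.8 with blebbistatin and 40.6 in controls. Reads of Rps27l may be shared with its close paralog Rps27, so its level is uncertain.

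Several genes that execute apoptosis lay lower than Trp53, but the levels of the arrest and apoptosis classes overlapped. Perp, of the apoptosis class, had 22.1 CPM per kilobase with blebbistatin and 38.8 in controls. Plk3 and Gtse1, of the arrest class, had 7.02 and 5.80 with blebbistatin and 8.97 and 6.54 in controls. Bax, which permeabilises the outer mitochondrial membrane, had 11.3 CPM per kilobase with blebbistatin and 10.8 in controls. Pmaip1 (Noxa) had 11.1 with blebbistatin and 12.7 in controls. Fas, a death receptor, had 2.28 with blebbistatin and 2.36 in controls, and Bbc3 (Puma) 1.53 with blebbistatin and 1.59 in controls. The lowest members were Cdkn2a, at 0.628 with blebbistatin and 1.41 in controls, and Ddb2, at 0.762 with blebbistatin and 0.484 in controls. Only these 2 had a library without a count, and the lowest count of any other member in any library was 45, in Bbc3.

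**Figure D1:**
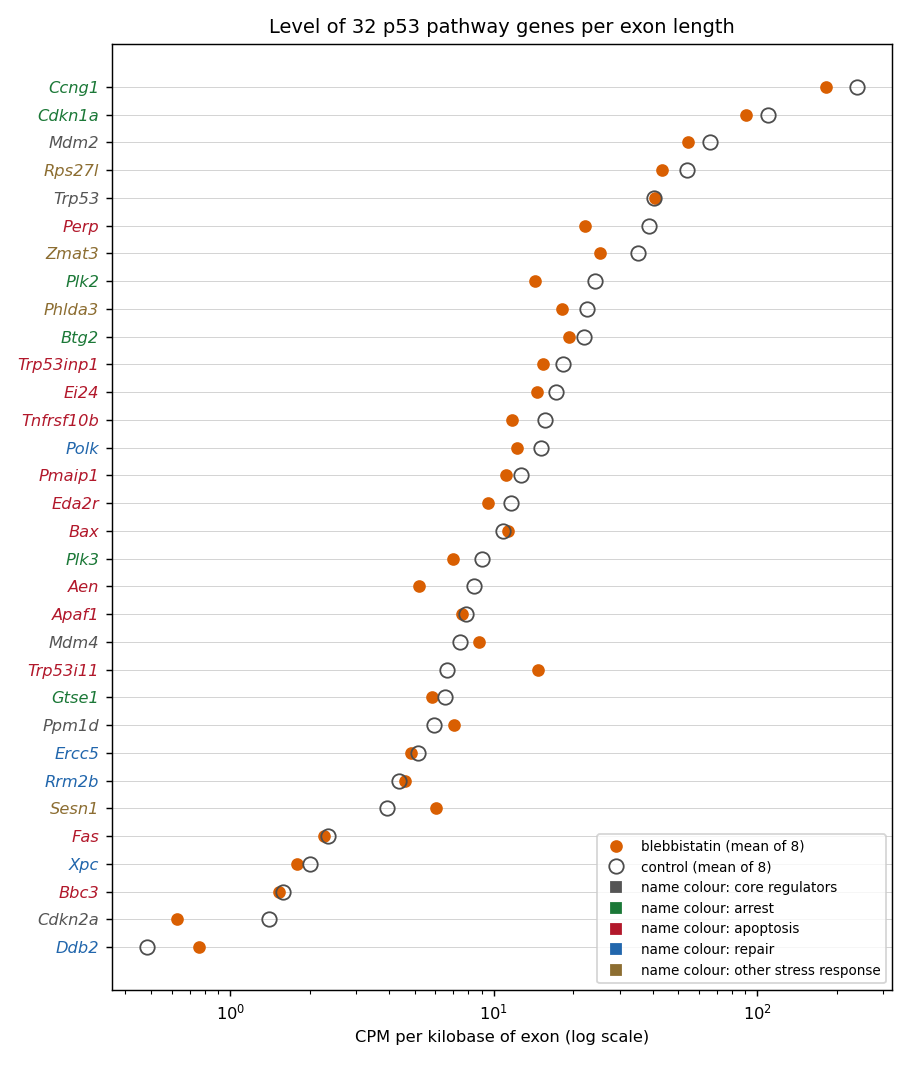
Mean level of each of the 32 genes over 8 libraries per group, in CPM per kilobase of exon on a log axis, with blebbistatin as filled and control as open circles. Ccng1 is highest, at 182 with blebbistatin and 238.5 in controls, and Ddb2 lowest among controls, at 0.484.

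Blebbistatin was compared with control for every gene of the table, to ask whether RNA levels of the pathway differed when myosin II was blocked. By edgeR's quasi-likelihood test 0 of the 32 members passed an adjusted p of 0.05, where 0.606% of all 15675 tested genes did (0.255% higher and 0.351% lower). At an unadjusted p under 0.05 there were 8 members, or 25.0%, against 12.2% of all tested genes, where 6.21% of genes were higher and 5.98% lower. Of the 8 members, 2 were higher with blebbistatin (Trp53i11 and Sesn1) and 6 lower (Plk2, Zmat3, Aen, Perp, Tnfrsf10b and Polk). In all 24 members had a log2 fold change below 0 (75.0%, against 45.9% of all tested genes), and the median member stood at −0.22, against 0.04 for all genes. DESeq2 called 2 members, Trp53i11 higher and Plk2 lower, where it called 3.20% of its genes (1.45% higher and 1.75% lower). Limma voom called the same 2, and 0.721% of all genes (0.217% higher and 0.504% lower). The CPM ranges of the groups overlapped in 32 of 32 members, and 0.242% of all genes had ranges that did not. In bulk RNA, fewer cells of a type and less RNA per cell cannot be told apart.

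**Figure D2:**
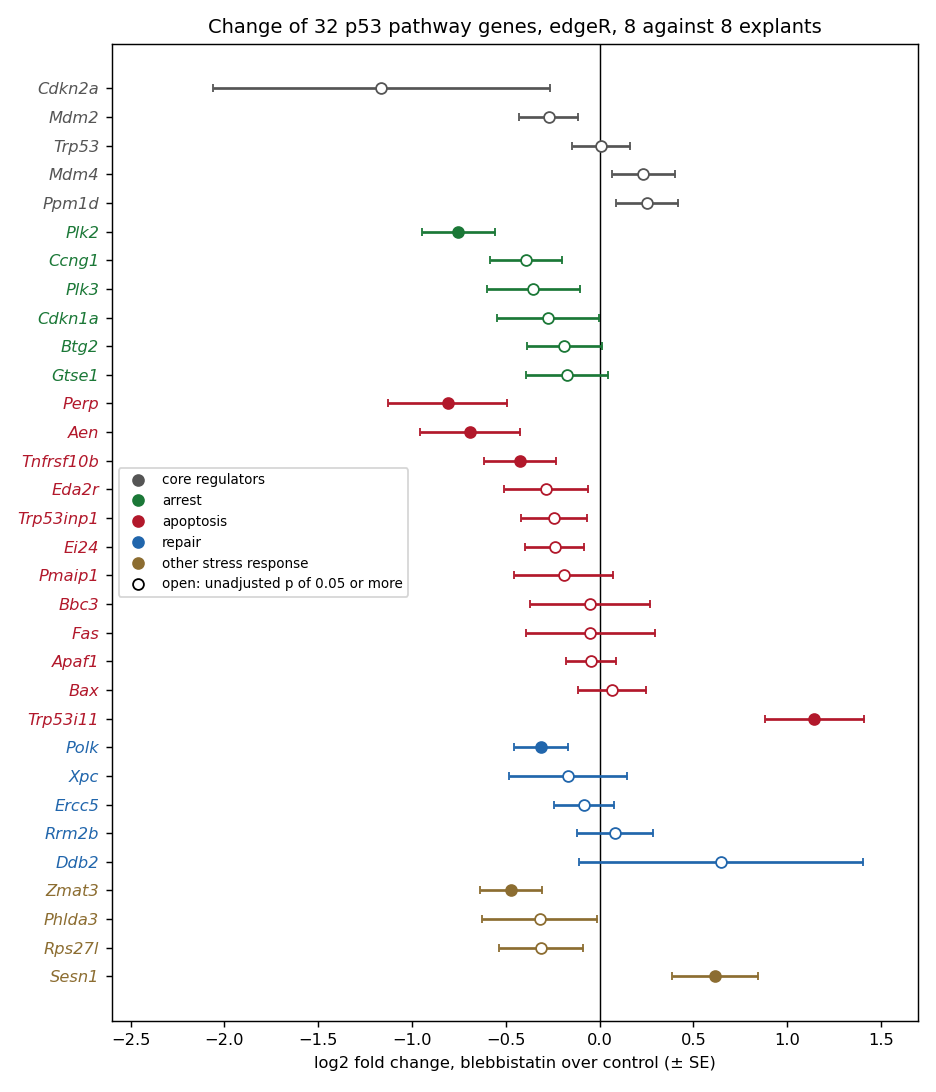
Log2 fold change of each of the 32 genes, blebbistatin over control, with its standard error, from edgeR on 8 libraries a group. Names and points are coloured by role, filled points have an unadjusted p under 0.05, and 24 of the 32 points lie below 0.

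Of the 5 core regulators 0 passed edgeR and 0 were at an unadjusted p under 0.05, and their median log2 fold change was 0.01. Trp53 (ENSMUSG00000059552, chromosome 11, 69580359 to 69591873, GENCODE M21 on GRCm38) ran from 126 to 262 CPM with blebbistatin, median 146, and from 119 to 211.5 CPM in controls, median 167.5. The treated libraries averaged 165 ± 44.5 CPM and the controls 164 ± 33.4 CPM (SD, n = 8 each), and edgeR gave a fold change of 0.01 on the log2 scale (SE 0.16, adjusted p = 0.991), so that 2 standard errors either side reach from −0.30 to 0.32. Both groups covered much the same range, and its highest library was blebbistatin 1.

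Mdm2, whose product degrades p53 (chromosome 10, 117688875 to 117710758), had 195 to 386 CPM with blebbistatin, median 271, against 246 to 432 CPM in controls, median 331. Its log2 fold change was −0.27 (SE 0.16, edgeR adjusted p = 0.519), and 3 treated libraries lay below every control. Mdm4, a relative of Mdm2 that holds back the activity of p53, stood at 0.23 on the log2 scale (adjusted p = 0.630), with 4 treated libraries above all controls. Ppm1d, a phosphatase that ends the damage response, stood at 0.25 (SE 0.17, adjusted p = 0.581), at 16.03 to 26.9 CPM with blebbistatin, median 23.4, and 12.6 to 25.1 CPM in controls, median 19.7. Cdkn2a, whose alternative reading frame encodes the MDM2 inhibitor ARF, was near the limit of detection, at 0 to 1.96 CPM with blebbistatin and 0.0537 to 4.997 CPM in controls, and its log2 fold change of −1.16 had an SE of 0.90 (adjusted p = 0.654).

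All 6 arrest genes had a log2 fold change below 0 (against 45.9% of all tested genes), with a median of −0.31. Of the 6, 0 passed edgeR. Plk2, a polo-like kinase and a p53 target (ENSMUSG00000021701, chromosome 13, 110395046 to 110400844), had the smallest p of them. It ran from 33.6 to 107.5 CPM with blebbistatin, median 58.3, and from 68.5 to 143 CPM in controls, median 109.7. All 8 treated libraries lay below the control median and 6 lay below every control. Its log2 fold change was −0.75 (SE 0.19, edgeR adjusted p = 0.0768), and the adjusted p was 0.0106 with DESeq2 and 0.0448 with limma voom. It was 0.231 with Y-linked genes and 0.620 with the mitochondrial share as a covariate in edgeR (−0.72 and −0.60 on the log2 scale).

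Ccng1 had 342 to 830 CPM with blebbistatin, median 669.5, and 449.7 to 1044 CPM in controls, median 893, and 8 of 8 treated libraries were below the control median. Its log2 fold change was −0.39 (SE 0.19, edgeR adjusted p = 0.421). Cdkn1a (chromosome 17, 29090976 to 29100727) had 123.5 to 581 CPM with blebbistatin, median 299, and 249 to 612 CPM in controls, median 375. The treated libraries were the more scattered, with a coefficient of variation of 50.4% against 29.1% in controls, and 3 of them lay below every control. The fold change of Cdkn1a was −0.28 on the log2 scale (SE 0.27, edgeR adjusted p = 0.736), with 2 standard errors either side reaching from −0.82 to 0.27. It was −0.16 without blebbistatin 3, −0.15 without blebbistatin 6, −0.15 without control 2, −0.46 without blebbistatin 2 and −0.09 without the 3 libraries of highest macrophage markers. Plk3, another polo-like kinase, had a log2 fold change of −0.35, Btg2, an antiproliferative gene, of −0.19, and Gtse1, which peaks in late cell cycle phases and in human cells restrains p53, of −0.17. Their adjusted p-values ran from 0.622 to 0.799.

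**Figure D3:**
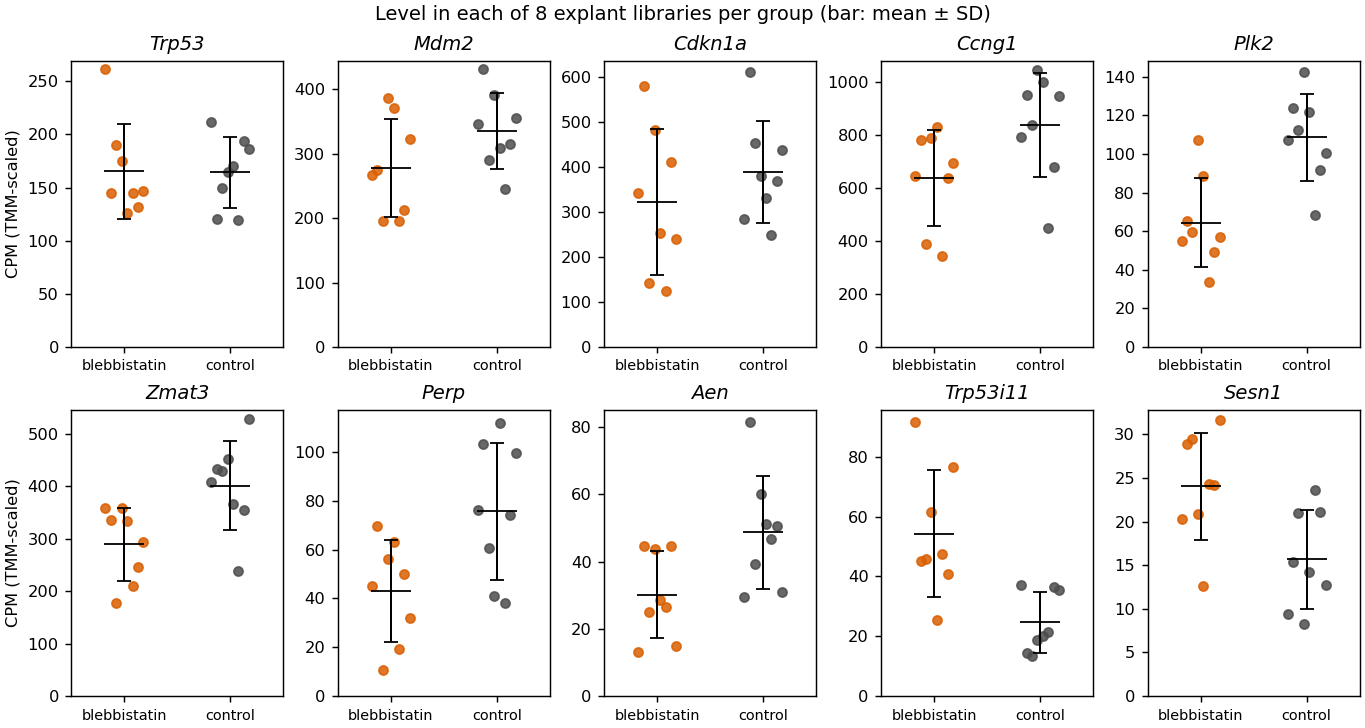
CPM of 10 of the genes in each library, with blebbistatin left of control, and mean ± SD as bars. All 8 blebbistatin libraries lie below the control median in Ccng1, Plk2, Zmat3, Perp and Aen and above it in Trp53i11, while Trp53 covers a similar range in both groups.

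Of the 12 apoptosis genes, 10 had a log2 fold change below 0 (83.3%, against 45.9% of all tested genes), with a median of −0.22. None of the 12 passed edgeR, where 0.606% of all tested genes did. At an unadjusted p under 0.05 were 4 (33.3%, against 12.2% of all tested genes). Trp53i11, named for its induction by p53 in human cells (ENSMUSG00000068735, chromosome 2, 93187548 to 93201759), stood out upwards. It ran from 25.5 to 91.7 CPM with blebbistatin, median 46.7, and from 13.4 to 37.0 CPM in controls, median 20.6. Of the treated libraries 7 lay above every control, and the eighth, blebbistatin 5, lay within their range. Treated libraries averaged 54.3 ± 21.2 CPM and controls 24.6 ± 10.1 CPM (SD, n = 8 each), a 2.21-fold difference (log2 1.14 in the fit, SE 0.26, edgeR adjusted p = 0.0524). The adjusted p was 0.00202 with DESeq2 and 0.0454 with limma voom. It was 0.229 with Y-linked genes and 0.562 with the mitochondrial share as a covariate in edgeR (1.13 and 0.83 on the log2 scale).

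Perp, a membrane protein that mediates p53-dependent apoptosis and also belongs to desmosomes, had an estimate below 0. It had 10.48 to 69.7 CPM with blebbistatin, median 47.5, and 38.2 to 112 CPM in controls, median 75.2. Its log2 fold change was −0.81 (SE 0.32, edgeR adjusted p = 0.286), and 8 of 8 treated libraries were below the control median. Aen, a nuclease of apoptotic cells, had 13.2 to 44.8 CPM with blebbistatin, median 27.6, and 29.5 to 81.7 CPM in controls, median 48.6, again with 8 of 8 treated libraries below the control median (log2 fold change −0.69, SE 0.26, edgeR adjusted p = 0.272). Tnfrsf10b, the receptor of the death ligand TRAIL, had 33.4 to 91.7 CPM with blebbistatin, median 65.4, and 61.4 to 119.5 CPM in controls, median 82.0 (−0.42, SE 0.19, adjusted p = 0.378). Within this class the estimates of these 3 genes and of Trp53i11 thus had opposite signs.

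The best known effectors had estimates near 0. Bax had 11.5 to 26.7 CPM with blebbistatin, median 17.5, and 11.4 to 20.9 CPM in controls, median 17.8 (log2 fold change 0.07, SE 0.18, edgeR adjusted p = 0.910). The fold changes of Bbc3, Fas, Pmaip1 and Apaf1, the scaffold of the apoptosome, were −0.05, −0.05, −0.19 and −0.04 on the log2 scale. Their standard errors were 0.32, 0.34, 0.26 and 0.13, so 2 standard errors either side of Apaf1 reach from −0.31 to 0.22, and those of Fas from −0.74 to 0.64. The remaining 3 were Eda2r, a receptor of the tumour necrosis factor family (−0.29), Trp53inp1, a p53-induced nuclear protein (−0.24), and Ei24, a protein of the endoplasmic reticulum (−0.24), with adjusted p-values of 0.584 to 0.656.

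The 5 repair genes had a median log2 fold change of −0.08, and 3 of them were below 0. Polk, a DNA polymerase that copies past damaged bases, had the smallest p, at 53.4 to 93.5 CPM with blebbistatin, median 64.5, and 63.7 to 113 CPM in controls, median 81.4 (−0.31, SE 0.14, edgeR adjusted p = 0.387). Rrm2b, the p53-inducible subunit of ribonucleotide reductase, had a median of 46.1 CPM with blebbistatin and 37.6 CPM in controls (0.08, SE 0.20, adjusted p = 0.896). Xpc, which recognises distorted DNA, and Ercc5, the endonuclease XPG, had fold changes of −0.17 and −0.08 on the log2 scale. Ddb2, which binds DNA damaged by ultraviolet light, ran from 0 to 6.91 CPM with blebbistatin, median 1.73, and from 0.0999 to 2.77 CPM in controls, median 0.991 (log2 fold change 0.65, SE 0.76, adjusted p = 0.781). Without blebbistatin 8 its log2 fold change was 0.0592. Its exons share 652 bases with Acp2 on the other strand. With no strand setting or rule for shared reads stated, its count may have gained or lost reads there. The exons of Cdkn1a, Plk3, Bax, Ei24 and Rrm2b also overlap another annotated gene, by 84 to 734 bases.

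Set side by side, the arrest, apoptosis and repair genes had medians of −0.31, −0.22 and −0.08. Below 0 were 6 of 6, 10 of 12 and 3 of 5 members, against 45.9% of all tested genes. The medians of arrest and apoptosis stayed below 0 in 30 of 30 alternative analyses, and that of repair in 26 of 30. These analyses reuse the same libraries, so their number is not a measure of replication. Between libraries of a group, the median deviation of the arrest, apoptosis and repair genes had a pooled SD of 0.41, 0.26 and 0.24 (log2 scale). Whether the classes differ from each other was not tested.

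Among the 4 other stress genes, Zmat3, an RNA-binding zinc finger protein (chromosome 3, 32334792 to 32366014), had 178 to 358 CPM with blebbistatin, median 315, and 239 to 528 CPM in controls, median 419. All 8 treated libraries were below the control median (log2 fold change −0.47, SE 0.16, edgeR adjusted p = 0.218). Sesn1, a sestrin that restrains growth signalling through mTORC1, had 12.6 to 31.6 CPM with blebbistatin, median 24.2, and 8.29 to 23.6 CPM in controls, median 14.8. Of its treated libraries 5 lay above every control (0.62, SE 0.23, edgeR adjusted p = 0.259). Phlda3, a repressor of AKT, had a fold change of −0.32 on the log2 scale (adjusted p = 0.727). Rps27l had 18.2 to 58.4 CPM with blebbistatin, median 36.9, and 25.7 to 57.9 CPM in controls, median 44.5 (−0.31, SE 0.22, edgeR adjusted p = 0.625). In all, 5 members had 8 of 8 treated libraries below the control median (Plk2, Ccng1, Perp, Aen and Zmat3) where 4.11% of all genes did, and 1, Trp53i11, had 8 of 8 above it, as 3.03% of all genes did.

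The arrest genes were lowest in 3 explants, 2 with blebbistatin and 1 control. The median arrest gene stood 1.15 below its mean over all libraries in blebbistatin 6 (log2 scale, −1.15), at −0.60 in blebbistatin 3 and at −0.46 in control 6, whereas the other 6 treated libraries lay between −0.28 and 0.31 and the other 7 controls between 0.17 and 0.41. The same 3 libraries were lowest in the median apoptosis gene, at −0.55, −0.47 and −0.21 in blebbistatin 6, blebbistatin 3 and control 6, and in the median gene of the other stress responses, at −0.85, −0.39 and −0.51. They were not the 3 lowest in core regulators or repair genes. These 3 libraries were also the 3 highest in macrophage markers, with a mean log2(CPM + 1) of 6.15, 7.27 and 6.76, though control 3, at 6.02, was not low in arrest genes (0.17). Without the 3 libraries, an analysis added after these values were seen, 0 members passed edgeR, 7 had an unadjusted p under 0.05, and the median member was at −0.12. The share of all genes at that unadjusted p is not given for this fit. With the macrophage markers as a covariate in all 16 libraries, edgeR called 4 members, Trp53i11 (adjusted p = 0.0224) higher and Plk2 (0.0305), Zmat3 (0.0342) and Perp (0.0475) lower. That fit called 280 of the 15675 tested genes, against 95 in the fit without the covariate.

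**Figure D4:**
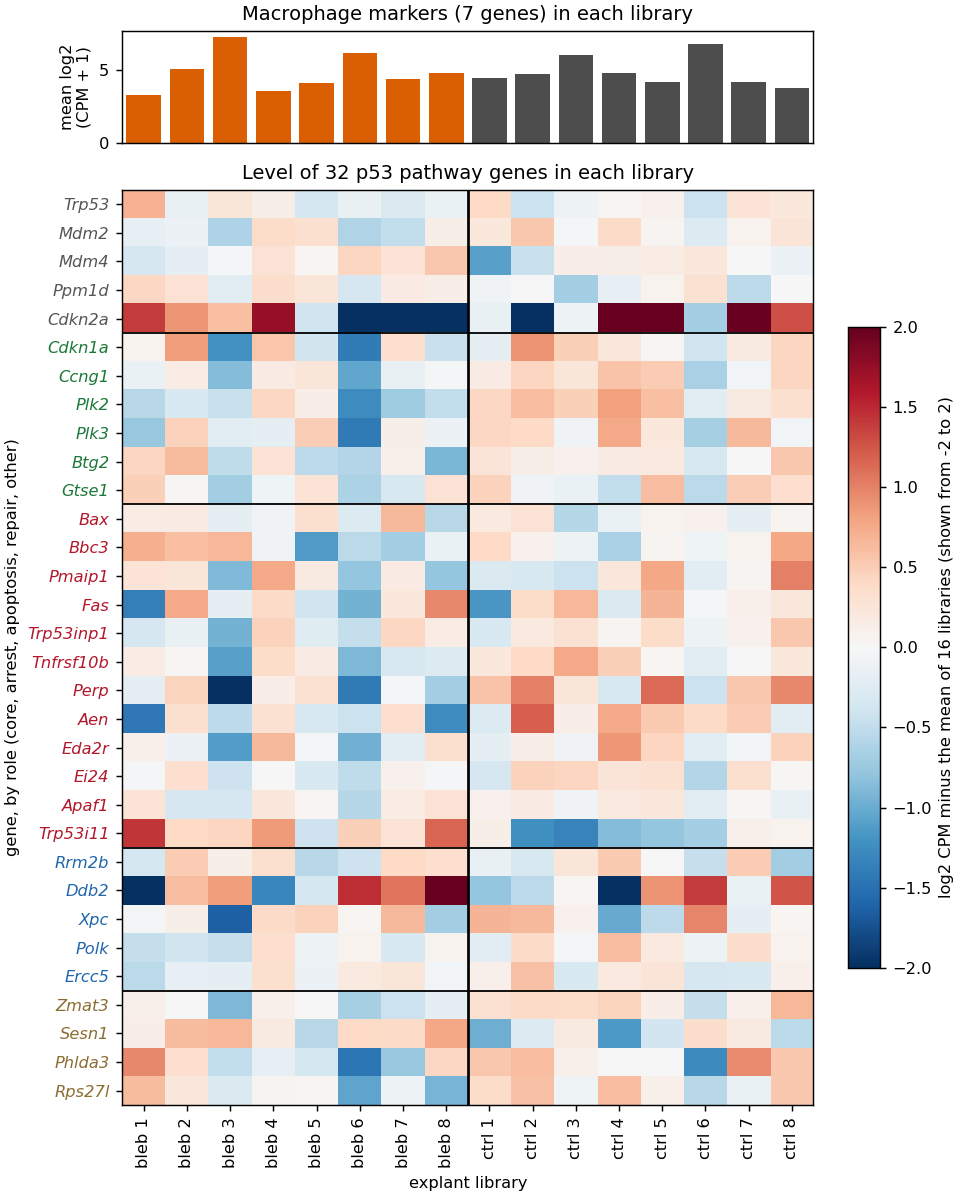
Upper panel, mean log2(CPM + 1) of 7 macrophage markers per library. Lower panel, log2 CPM of the 32 genes minus each gene's mean over 16 libraries, blebbistatin left of control and genes ordered by role; blebbistatin 3, blebbistatin 6 and control 6 are low in most arrest genes and high in macrophage markers.

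How far the targets moved together was described by 6 relations, of Cdkn1a with Mdm2, Ccng1, Phlda3, Zmat3, Btg2 and Trp53. Over 16 libraries on the log2 CPM scale, Cdkn1a and Ccng1 had Pearson's r = 0.775 (permutation p = 0.00075, adjusted over the 6 relations 0.00225) and Spearman's rho = 0.535 (permutation p = 0.0347, adjusted 0.0695). Btg2 had r = 0.757 (permutation p = 0.00069, adjusted 0.00225) and rho = 0.682 (permutation p = 0.0046, adjusted 0.0226). For Zmat3 r was 0.732 (permutation p = 0.00141, adjusted 0.00282) and rho 0.653 (permutation p = 0.00755, adjusted 0.0226). Mdm2 and Phlda3 had r = 0.6 and 0.562 (permutation p = 0.0134 and 0.0233, adjusted 0.0202 and 0.028) and rho = 0.476 and 0.406 (permutation p = 0.064 and 0.12, adjusted 0.0959 and 0.144). Trp53 had r = −0.06 (permutation p = 0.824) and rho = −0.04 (permutation p = 0.891).

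The positive relations were weaker when outlying libraries were left out, least so for Btg2. Leaving out libraries far from the median of Cdkn1a narrows its range, which by itself tends to lower r. Without blebbistatin 3 and 6, the libraries farthest from the median of Cdkn1a, r was 0.421 for Ccng1, 0.420 for Zmat3, 0.274 for Phlda3 and 0.171 for Mdm2, and 0.697 for Btg2. Without the 3 libraries of highest macrophage markers it was 0.231 for Ccng1, 0.278 for Zmat3, 0.0376 for Phlda3 and 0.0343 for Mdm2, and 0.667 for Btg2. Within groups of 8, r with Btg2 was 0.801 with blebbistatin (exact permutation p = 0.0219, adjusted 0.0656) and 0.406 in controls (exact permutation p = 0.307, adjusted 0.368). In controls, which hold neither blebbistatin 3 nor 6, Btg2 had the lowest r of the positive relations, with rho = 0.119. With Ccng1 it was 0.826 with blebbistatin (exact permutation p = 0.0148, adjusted 0.0656) and 0.616 in controls (exact permutation p = 0.11, adjusted 0.221). For Mdm2, Phlda3 and Zmat3 r was 0.5, 0.529 and 0.756 with blebbistatin and 0.675, 0.565 and 0.673 in controls, and none of the 6 relations passed the adjustment within either group by Pearson's r or Spearman's rho.

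**Figure D5:**
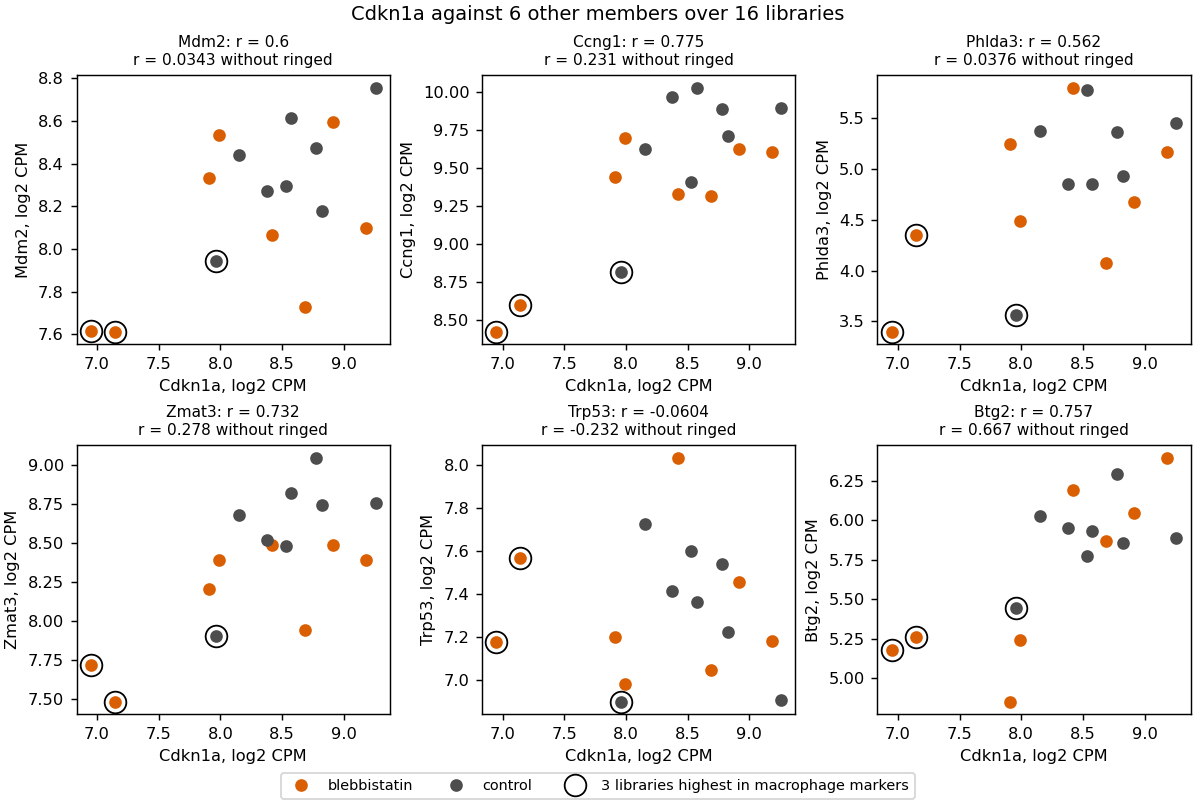
Log2 CPM of 6 genes against that of Cdkn1a in 16 libraries, coloured by group, with the 3 libraries of highest macrophage markers ringed and r given with and without them. The ringed libraries are among the 5 lowest in Cdkn1a, Mdm2, Ccng1, Phlda3, Zmat3 and Btg2, and without them r is 0.231 for Ccng1 and 0.667 for Btg2.

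Other genes of the pathway were read from lists of names. Of 25 further p53 targets 23 were tested, and 0 passed edgeR or limma voom and 1 DESeq2. At an unadjusted p under 0.05 there were 5 (21.7%, against 12.2% of all tested genes), Sesn2 and Cyfip2 higher and Epha2, Gdf15 and Ankra2 lower, and the median log2 fold change was −0.06, with 12 below 0 (52.2%, against 45.9% of all tested genes). Epha2, an ephrin receptor, had the smallest p, at 19.5 to 88.6 CPM with blebbistatin, median 54.1, and 49.2 to 124 CPM in controls, median 89.4 (−0.76, SE 0.23, edgeR adjusted p = 0.145; DESeq2 adjusted p = 0.0396). Gdf15, a secreted stress cytokine, was barely detected, with 0.0214 to 0.354 CPM with blebbistatin and 0.0339 to 5.36 CPM in controls (−2.604, SE 0.81, adjusted p = 0.157). Of 13 upstream kinases and cofactors, among them Atm and Chek2, 0 passed edgeR, DESeq2 or limma voom and 0 had an unadjusted p under 0.05 (median −0.02). The smallest p was that of Chek1, a checkpoint kinase, at 4.72 to 21.3 CPM with blebbistatin, median 8.82, and 2.85 to 14.7 CPM in controls, median 5.78 (0.51, SE 0.36, edgeR adjusted p = 0.612). Rpl23, a ribosomal protein that binds MDM2, had 307 to 500.0 CPM with blebbistatin, median 361, and 335 to 511 CPM in controls, median 443 (−0.18, SE 0.13, edgeR adjusted p = 0.630). Trp63 and Trp73, the relatives of Trp53, were looked for, and 0 of these 2 were among the tested genes.

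A list of 12 cell cycle genes that p53 is known to lower through p21 and the DREAM complex was also read. Of the 12, 10 had a log2 fold change above 0 and 2 below it (16.7%, against 45.9% of all tested genes), with a median of 0.34, and 0 passed edgeR, DESeq2 or limma voom. At an unadjusted p under 0.05 there were 4 (33.3%), Mki67, Bub1b, Cdk1 and Ccna2, with estimates above 0 in each, against 12.2% of all tested genes (6.21% higher). Mki67, a marker of dividing cells, had 149.8 to 360 CPM with blebbistatin, median 265, and 94.97 to 212 CPM in controls, median 182 (0.61, SE 0.19, edgeR adjusted p = 0.159). Bub1b, a kinase of the spindle checkpoint, had 17.3 to 33.3 CPM with blebbistatin, median 22.3, and 10.49 to 22.4 CPM in controls, median 15.6, with 8 of 8 treated libraries above the control median (0.56, SE 0.18, edgeR adjusted p = 0.171).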

How the data were processed

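RNA was measured by sequencing in 16 explant libraries, 8 with blebbistatin and 8 controls, and the values deposited by the authors are unnormalised counts per gene. The submitters' processing notes name HTSeq 0.6.1p1, SAMtools 1.3, TopHat2 2.1.0, edgeR, Bowtie2 2.2.6.0 and build mm10 (GRCm38). What each tool did, any filter, strandedness and the gene annotation were not given in the sources used here. Every gene of the table exceeded 1 CPM in at least 4 libraries. Members were found by the symbol in the table, and Ensembl identifiers gave current symbols for 15665 of 15805 genes.

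Counts were filtered with filterByExpr, which took out 130 genes, TMM-scaled and tested with edgeR 4.0.16 in R 4.3.3 (robust quasi-likelihood, no term but treatment), and p-values were adjusted over 15675 genes by Benjamini-Hochberg at 0.05. On simulated counts with known changes, false calls stayed under the nominal share with edgeR and limma voom but exceeded it with DESeq2. The simulation was a single draw in which the spread of a gene depended on its level alone. It held no differences in cell mixture, so it does not give the error rates of these calls. Levels are TMM-scaled CPM, except marker sums, which are CPM of library totals; log2 CPM used a prior count of 2, and fold changes are blebbistatin over control. Exon lengths are the union of GENCODE M21 exons. Correlations used 100000 permutations over 16 libraries and all pairings within 8 (SciPy 1.17.1).

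Alternatives were DESeq2 1.42.0, limma 3.58.1 voom, other scalings and filters, covariates, a replicate block and left-out libraries. The labels do not say that replicate numbers pair libraries, and the main fit did not use them. Same-numbered libraries correlated in their deviations from the group mean at 0.00395 to 0.279, and 4 of 8 pairs were over 0.1. Whether same-numbered libraries belong together cannot be told from these correlations. In Y-linked level the libraries of a number were alike only for number 7. For number 1 the mean log2(CPM + 1) of the Y-linked genes was 4.81 with blebbistatin and 0.857 in the control. For number 4 it was 1.10 with blebbistatin and 5.32 in the control. Whether same-numbered libraries shared a culture batch was not tested. The members, roles, lists and tests were chosen with earlier results of these data known. Named with full values were members at an unadjusted p under 0.05, Trp53, Mdm2, Cdkn1a, and the 2 of smallest p and the 1 of highest level in each role, and of other lists the 2 of smallest p.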

Additional observations from a re-analysis of the deposited data

Results flagged for a closer look

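Of 64 groups of 8 libraries (32 genes in 2 groups), 2 had a library far from the other 7, and chance alone sets apart about 1 in 20 groups. Trp53 in blebbistatin 1 had 262 CPM, the next highest treated library 189.8 CPM, and the group median was 146 CPM. Ddb2 in blebbistatin 8 had 6.91 CPM from 323 counts, the next highest treated library 2.93 CPM, and the group median was 1.73 CPM.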

How the results depend on the processing

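Of 956 values of single members under 30 alternatives, 907 kept their direction and their side of the threshold, 18 newly passed it and 31 changed sign, none of these beyond 0.23 on the log2 scale. The members called numbered 2 with DESeq2, with limma voom and with a filter of 5 CPM in at least 8 libraries, 1 with library totals in place of TMM, 3 with the replicate block, 4 with the macrophage covariate and 0 to 2 as each library was left out. The replicate block added Aen (adjusted p = 0.0249) to Plk2 (0.00726) and Trp53i11 (0.0221), with 177 genes called in all, and 2 of 8 treated libraries correlated best with their own number. Plk2 passed without blebbistatin 4 (adjusted p = 0.0324), blebbistatin 5 (0.0480) or control 6 (0.0378), and Trp53i11 without blebbistatin 5 (0.0213); over all alternatives their adjusted p ran from 0.00726 to 0.620 and from 0.00202 to 0.562. Members at an unadjusted p under 0.05 numbered 5 with the Y-linked covariate, 3 with the mitochondrial share covariate and 5 (without control 2) to 10 as each library was left out. The shares of all genes at that unadjusted p are not given for these alternatives. All genes called numbered 424 with DESeq2, 113 with limma voom, 116 with library totals and 170 with the stricter filter. They numbered 280 with the macrophage, 22 with the Y-linked and 1 with the mitochondrial covariate, and 44 (without control 7) to 206 (without control 6) as each library was left out. Of the further p53 targets 1, Epha2, passed with DESeq2 and 1 with the replicate block. The cause of these shifts was not tested.

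Sign changes were in 8 genes. Trp53 was at −0.0035 with the replicate block, −0.0556 with the Y-linked and −0.0419 with the mitochondrial covariate, −0.12 without blebbistatin 1 and 8, −0.0545 without the 3 libraries of highest macrophage markers, and −0.13 to 0.0633 as each library was left out. Without those 3, Fas was at 0.0836, Apaf1 at 0.0453 and Xpc at 0.14. With the mitochondrial covariate Fas was at 0.14, Apaf1 at 0.0475 and Ercc5 at 0.0803. Xpc was at 0.23 with the Y-linked covariate and Ddb2 at −0.23 with limma voom. As each library was left out, Bax ran from −0.0394 to 0.13, Bbc3 from −0.18 to 0.0718, Fas from −0.23 to 0.0731, Apaf1 from −0.0957 to 0.0214 and Ercc5 from −0.14 to 0.0075. On library totals r of Cdkn1a with Phlda3 was 0.506 (adjusted permutation p = 0.0539). Without the 3 libraries r was 0.0343 with Mdm2, 0.231 with Ccng1, 0.0376 with Phlda3 and 0.278 with Zmat3. Cdkn2a and Ddb2 each had a library at 0 counts, and Ddb2 ran from 0.0592 (without blebbistatin 8) to 0.89 as each library was left out.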

Other observations

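The spread between explants in these genes was set beside that of all tested genes, without matching for level. The median member had a coefficient of variation of 34.3% over the 8 blebbistatin libraries and 27.8% over the 8 controls, against 36.5% with blebbistatin and 31.9% in controls for the median of all tested genes. The coefficient was higher with blebbistatin in 21 of 32 members and in 61.4% of all tested genes. Among controls Apaf1 was the steadiest member, at 11.3%, and Cdkn2a the most variable, at 104%. Perp spanned 6.65-fold between its lowest and highest blebbistatin library and 2.94-fold among controls, and Cdkn1a 4.71-fold with blebbistatin and 2.46-fold among controls.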
